A study of Canis lupus familiaris with 186 samples.

Results

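The 9 genes described here are the osteoclast genes ACP5, CTSK, CALCR, DCSTAMP, OCSTAMP, TNFRSF11A and NFATC1, together with TNFSF11 and TNFRSF11B, the ligand and the decoy receptor of the RANK axis. They were taken by symbol from the 37952 rows of the deposited count table, where each has 1 row. mRNA sequencing was done on the primary tumors of 186 pet dogs with osteosarcoma, 93 enrolled in trial COTC021 and 93 in trial COTC022. According to the paper, the tumors were sampled before any treatment, in dogs without macroscopic metastasis. Amputation and carboplatin, with or without rapamycin, came afterwards. The tumors arose in the animals themselves and were sequenced as bulk tissue, so tumor cells, bone cells and infiltrating leukocytes are mixed in every library. The labels give the trial as the group and carry no dose, time or age used here. The GS-1 clusters of the study, the disease-free interval and the overall survival are not part of the labels and were not analysed here. The expression of the 27 GS-1 genes that the study kept after count filtering was used as a continuous score in their place.

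Osteoclasts are the multinucleated cells that resorb bone, and they arise by fusion of precursors of the monocyte lineage. RANKL, the product of TNFSF11, is presented by osteoblast-lineage and other stromal cells and binds RANK, the product of TNFRSF11A, on the precursor. RANK signals through TRAF6 and NF-kB to NFATC1, the transcription factor that drives the osteoclast program. Osteoprotegerin, the product of TNFRSF11B, is a secreted decoy that captures RANKL before it reaches RANK. In osteosarcoma, osteoclasts lie at the border between tumor and bone, and bone lysis is a common feature of the disease.

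All 9 genes are protein coding in the RefSeq annotation of GSD_1.0, the dog genome build used by the authors. The resorption enzymes are ACP5, the tartrate-resistant acid phosphatase (chr20:50211593-50213981), and CTSK, the protease cathepsin K (chr17:60587454-60594862). CALCR (chr14:18875566-19033608) is the calcitonin receptor of mature osteoclasts. DCSTAMP (chr13:5699620-5729895) and OCSTAMP (chr24:34417948-34424217) are the membrane proteins needed for fusion. TNFRSF11A (chr1:14578257-14632411) and NFATC1 (chr1:996485-1092567) lie on the same chromosome. TNFSF11 is at chr22:8205225-8236245 and TNFRSF11B at chr13:18533442-18560917.

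Between 6587631 and 27420857 counts were assigned to genes in a library (median 10797162). The separator before the last word of the column name is doubled in 50 libraries, called set A here, and single in the other 136, called set B. What the doubling marks is not given in the labels. The median total was 19440449.5 in set A and 9851681 in set B, and set A holds 18 dogs from COTC021 and 32 from COTC022, so relations are also given by trial and by set. Levels are CPM, a gene's count scaled to a fixed library total, after TMM normalization. A count of 0 allows up to 3 counts, which equals 0.102 to 0.760 CPM depending on the library, for counting error only. Levels of different genes were not compared with each other, since transcript lengths were not used here. Fewer cells of a type and less RNA per cell cannot be told apart in bulk tissue.

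The levels of the osteoclast genes spanned a wide range from tumor to tumor in both trials. ACP5 ranged from 3.55 through a median of 1468 to 17901 CPM in COTC021, and from 1.78 through 1536 to 13034 CPM in COTC022. For CTSK the lowest, median and highest levels were 68.5, 1512 and 6792 CPM in COTC021 and 125, 1494 and 7143 CPM in COTC022. Tumors of both trials thus covered nearly the same interval for either resorption enzyme. The SD of log2(CPM + 1) of ACP5 over the 186 dogs was 2.43, at the percentile 99.7 of the 13422 genes that passed the count filter, and that of CTSK was 1.48, at the percentile 95.9.

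The fusion genes were as variable. DCSTAMP ranged from 0 through 17.4 to 96.0 CPM in COTC021 and from 0.0934 through 16.7 to 86.9 CPM in COTC022. OCSTAMP ranged from 0 through 16.1 to 136 CPM in COTC021 and from 0 through 15.2 to 115 CPM in COTC022. No count of OCSTAMP was found in 10 tumors, of which 2 also had none of DCSTAMP. In these 10 tumors the level of ACP5 lay between 1.78 and 127 CPM and that of CTSK between 68.5 and 1333 CPM. The tumor with CTSK at 1333 CPM, from COTC022, had DCSTAMP at 21.2 CPM. The totals of the 10 libraries were between 7734937 and 15803906 counts, within the range of the other libraries. The SD of log2(CPM + 1) was at the percentile 98.4 for OCSTAMP and 97.4 for DCSTAMP.

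The receptor and the transcription factor varied less. TNFRSF11A ranged from 0.378 through 7.94 to 30.9 CPM in COTC021 and from 1.03 through 7.37 to 38.7 CPM in COTC022. NFATC1 ranged from 10.9 through 67.4 to 178 CPM in COTC021 and from 14.9 through 66.8 to 186 CPM in COTC022. The SD of log2(CPM + 1) of NFATC1 was 0.58, at the percentile 52.4 of all genes tested, against 1.01 and the percentile 85.0 for TNFRSF11A. The upper quartile of the dogs was 1.61 times the lower quartile for NFATC1 and 6.61 times for ACP5.

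CALCR was near the detection limit in most tumors and was the only member that failed the count filter. Its count was 0 in 23 libraries and below 10 in 99 of the 186. The level ranged from 0 through 0.811 to 7.16 CPM in COTC021 and from 0 through 0.612 to 16.9 CPM in COTC022. At least 10 counts were reached in 58.0% of set A and 42.6% of set B, while the median level was 0.668 CPM in set A and 0.680 CPM in set B.

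The ligand and the decoy receptor were measurable in nearly every tumor. TNFSF11 ranged from 0.810 through 33.9 to 187 CPM in COTC021 and from 1.33 through 38.1 to 159 CPM in COTC022, and no library had fewer than 10 counts. TNFRSF11B ranged from 0 through 8.72 to 313 CPM in COTC021 and from 0.199 through 8.58 to 277 CPM in COTC022. It was at 0 in 1 library and below 10 counts in 11. For both genes the trials overlapped over nearly their whole range.

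**Figure D1:**
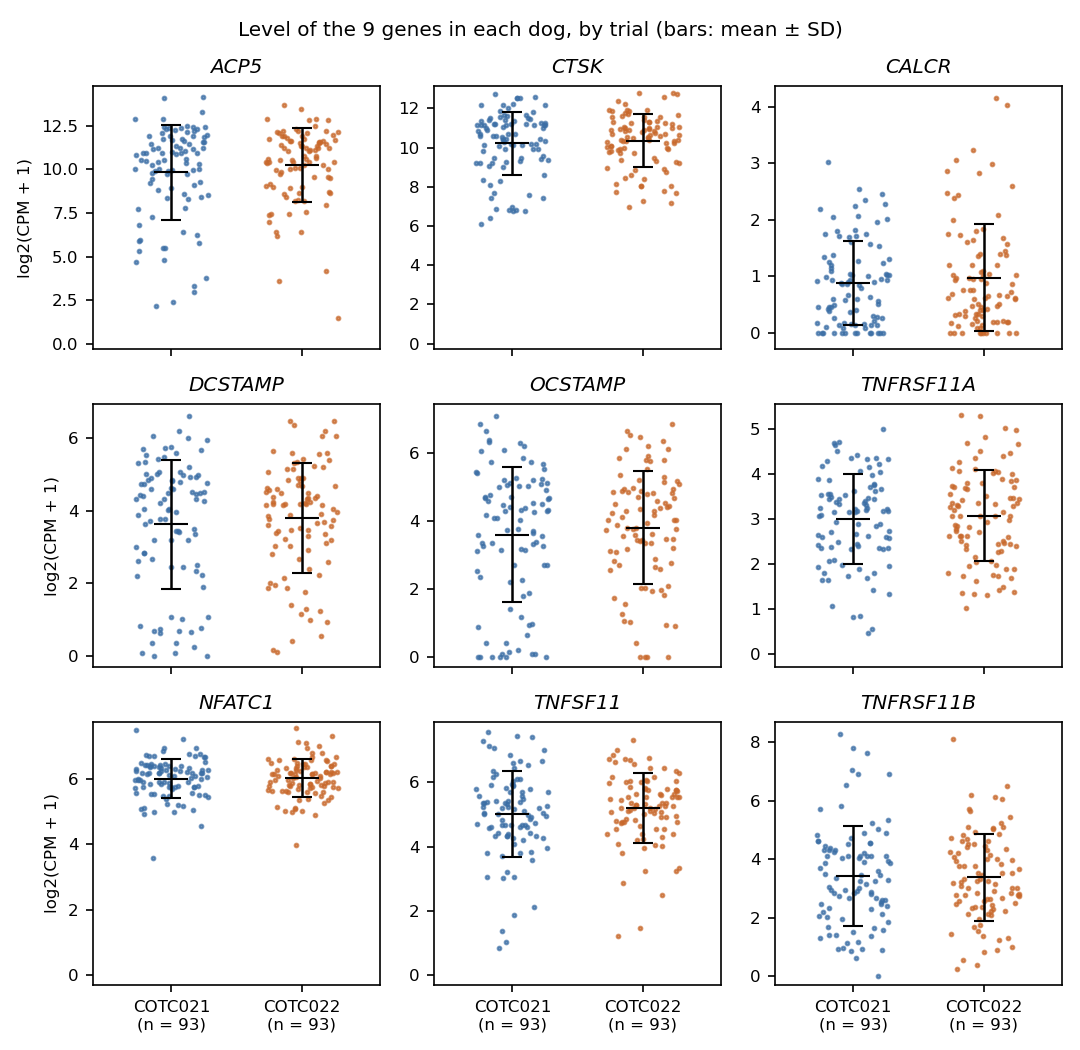
Level of each of the 9 genes in each dog, as log2(CPM + 1), with COTC021 in blue and COTC022 in orange (93 dogs each); the y axis differs between panels. Points are dogs and black bars give the mean and SD, the groups overlap in every panel, and the SD is largest for ACP5 (2.43) and smallest for NFATC1 (0.58).

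No member passed the test between the trials. With limma-voom, 0 of the 8 members that passed the filter had an adjusted p below 0.05, and none of the 8 had an unadjusted p below 0.05, where 9.92% of all genes did. Only 0.0149% of all genes passed the adjusted threshold. The largest differences, as COTC022 minus COTC021 on the log2 scale, were those of OCSTAMP (0.43, SE 0.39, adjusted p = 0.767) and ACP5 (0.41, SE 0.36, adjusted p = 0.762). That of TNFRSF11B was 0.01 (SE 0.27, adjusted p = 0.997). With edgeR's quasi-likelihood test and DESeq2 the differences of ACP5, CTSK, OCSTAMP, TNFSF11 and TNFRSF11B were below 0, and no member was called either. The mean log2(CPM + 1) of CALCR was 0.97 ± 0.94 (SD, n = 93) in COTC022 and 0.87 ± 0.75 (SD, n = 93) in COTC021, and a two-sided permutation test gave p = 0.420.

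The osteoclast genes moved together from dog to dog. Over the 186 dogs, ACP5, CTSK, DCSTAMP, OCSTAMP and TNFRSF11A had Spearman rho between 0.82 and 0.94 with each other in all 10 pairs, and Pearson r between 0.79 and 0.94. The closest pair was CTSK with DCSTAMP, the protease and the fusion protein (rho = 0.94, r = 0.94), followed by ACP5 with OCSTAMP (rho = 0.92, r = 0.92). NFATC1 followed these 5 genes less closely, with rho from 0.61 with ACP5 to 0.70 with TNFRSF11A. Its rho with them ran from 0.30 with ACP5 (adjusted p = 0.0414) to 0.48 with DCSTAMP in set A, and from 0.68 to 0.79 in set B, by permutation tests. CALCR had rho between 0.41 with NFATC1 and 0.64 with TNFRSF11A, at counts where counting error adds to its spread.

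All 21 pairs among the 7 osteoclast genes passed the permutation test, in which 1e-05 is the smallest p that 100000 resamples can give. Each of these pairs reached it, with an adjusted p of 1.29e-05 over the 36 pairs of the 9 genes. Within COTC021 the rho of the 10 pairs of the 5 closest genes ran from 0.84 to 0.94, and within COTC022 from 0.76 to 0.94. They ran from 0.71 to 0.93 in set A and from 0.84 to 0.95 in set B. Without the 2 dogs farthest from the median of the first gene, Pearson r of these 10 pairs was between 0.80 and 0.93. Taking the residuals on the GS-1 score left rho between 0.84 and 0.95. In set A, CALCR with NFATC1 no longer passed (rho = 0.13, adjusted p = 0.385).

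TNFSF11 and TNFRSF11B stood on opposite sides of this group of genes. TNFSF11 was positively correlated with all 7 osteoclast genes, from rho = 0.25 with CALCR (p = 0.00068, adjusted p = 0.000720) to rho = 0.55 with OCSTAMP. Pearson r was 0.22 and 0.60 for the same genes. TNFRSF11B was negatively correlated with 6 of the 7, from rho = -0.26 with ACP5 to -0.39 with DCSTAMP, with Pearson r from -0.25 for NFATC1 to -0.48 for DCSTAMP. Of the 7, 4 had a rho of -0.3 or less with it, against 1.28% of all genes. With CALCR its rho was 0.00 (p = 0.996, adjusted p = 0.996) and r was -0.05.

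Ligand and decoy receptor were not correlated with each other (rho = -0.05, p = 0.530, adjusted p = 0.545; r = -0.02, p = 0.775). Of the 36 pairs, 34 passed by Spearman rho and 34 by Pearson r, and both pairs that did not contain TNFRSF11B. Within COTC022, the pairs of NFATC1 with TNFSF11 (rho = 0.08, adjusted p = 0.476), NFATC1 with TNFRSF11B (rho = -0.17, adjusted p = 0.123) and ACP5 with TNFRSF11B (rho = -0.20, adjusted p = 0.0583) did not pass. In set A, TNFSF11 passed neither with NFATC1 (rho = 0.11, adjusted p = 0.481) nor with CALCR (rho = 0.20, adjusted p = 0.186). Without the 2 dogs farthest from the median, rho of OCSTAMP was 0.54 with TNFSF11 and -0.33 with TNFRSF11B.

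**Figure D2:**
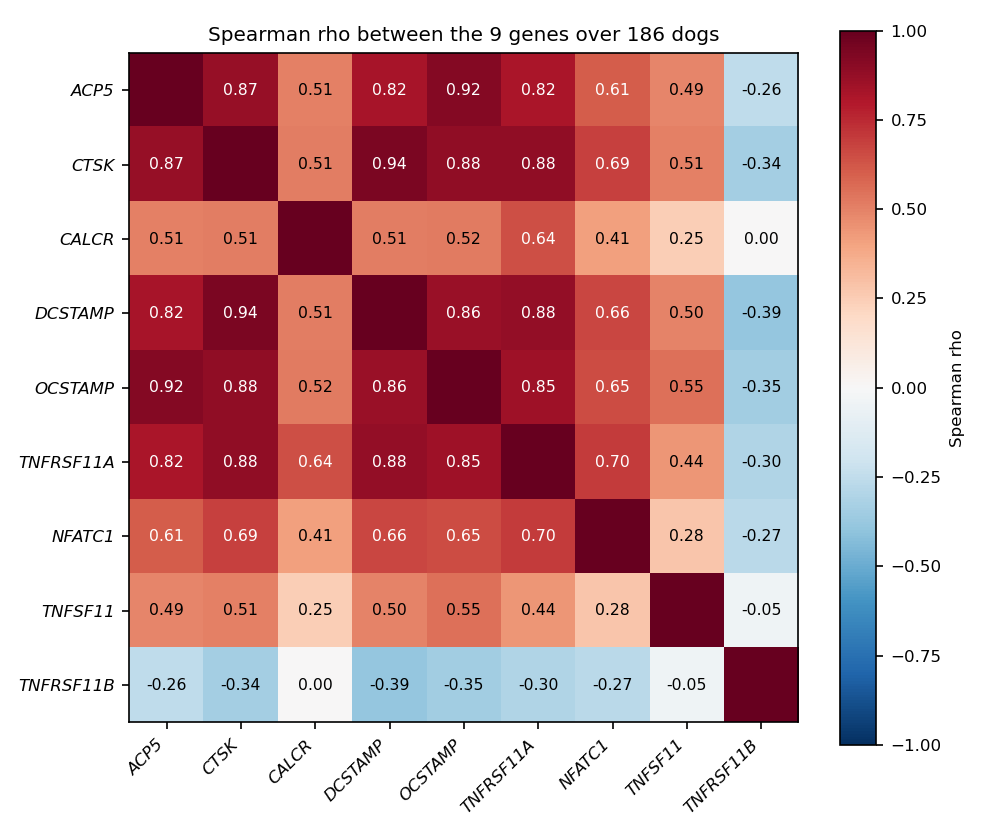
Spearman rho of log2(CPM + 1) for each of the 36 pairs of the 9 genes over 186 dogs, with the color scale from -1 (blue) to 1 (red). ACP5, CTSK, DCSTAMP, OCSTAMP and TNFRSF11A form a block at 0.82 to 0.94, TNFSF11 is positive with all 7 osteoclast genes, and TNFRSF11B is negative with all of them but CALCR.

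To ask whether ligand and decoy receptor each carry part of the relation, their levels were entered together as terms for every gene, with trial in the model. A slope is the log2 change of a gene per SD of TNFSF11 or TNFRSF11B over the dogs. This fit was added after the correlations were seen on the same dogs, so its calls and p-values are not separate support for them. All 6 osteoclast genes tested rose with TNFSF11, where 8.81% of all genes rose and 10.1% fell. All 6 fell with TNFRSF11B, where 9.4% of all genes fell and 9.33% rose. The median slope of all genes was -0.01 on TNFSF11 and 0.00 on TNFRSF11B.

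ACP5 had the largest slopes of the members, 1.33 (SE 0.14, adjusted p = 4.84e-15) on TNFSF11 and -1.06 (SE 0.14, adjusted p = 1.45e-09) on TNFRSF11B. OCSTAMP rose by 1.15 (SE 0.15) per SD of TNFSF11 and fell by 0.74 (SE 0.14) per SD of TNFRSF11B. DCSTAMP had slopes of 0.89 (SE 0.12) and -0.68 (SE 0.12). For these fusion genes the adjusted p were 3.94e-10 and 1.31e-05 for OCSTAMP, and 1.18e-09 and 4.55e-06 for DCSTAMP.

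The slopes of CTSK were of equal size, 0.67 (SE 0.08, adjusted p = 4.78e-11) on the ligand and -0.67 (SE 0.08, adjusted p = 5.89e-10) on the decoy receptor. TNFRSF11A, the receptor itself, had slopes of 0.47 (SE 0.08, adjusted p = 5.08e-07) and -0.38 (SE 0.08, adjusted p = 6.17e-05). NFATC1 had the smallest, 0.15 (SE 0.04, adjusted p = 0.00581) and -0.15 (SE 0.04, adjusted p = 0.00639).

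These calls were made by limma-voom, and edgeR's quasi-likelihood test called all 6 genes in the same directions. With edgeR the slope of ACP5 on TNFRSF11B was -0.55 (adjusted p = 0.00182), against -1.06 by limma-voom. Within COTC022, 5 of 6 genes were called on TNFSF11 and 4 of 6 on TNFRSF11B, with NFATC1 missing from both (slopes 0.07 and -0.10) and TNFRSF11A from the latter (-0.38, adjusted p = 0.0558). In set A 3 of 6 were called on TNFSF11, and DCSTAMP (0.51, adjusted p = 0.0816), TNFRSF11A (0.36, adjusted p = 0.0527) and NFATC1 (0.03, adjusted p = 0.821) were not. In set B all 6 were called on TNFSF11 and 5 of 6 on TNFRSF11B, where NFATC1 was not (-0.10, adjusted p = 0.223). All 12 estimates kept their sign in both trials and in both sets of libraries. Tests of the difference of these slopes between trials or between sets passed for no member. The smallest adjusted p was 0.291, for DCSTAMP on TNFSF11 by set (unadjusted p = 0.0365).

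**Figure D3:**
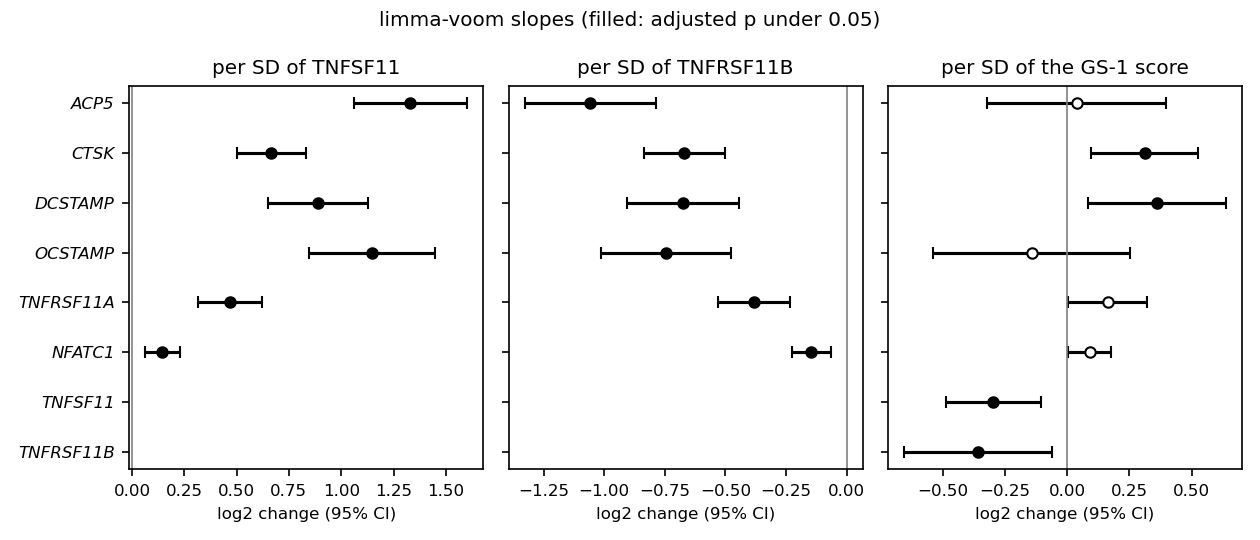
Slopes of limma-voom as log2 change per SD of TNFSF11 (left), TNFRSF11B (middle) and the GS-1 score (right), with 95% confidence intervals. Filled points have an adjusted p below 0.05; all 6 osteoclast genes tested are above 0 on TNFSF11 and below 0 on TNFRSF11B, and 2 of them are called on the GS-1 score. TNFSF11 and TNFRSF11B, which are terms of the first model, are drawn on the GS-1 score only.

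The ratio of ligand to decoy receptor combines both sides. It was taken per dog as log2 of the TNFSF11 count plus 1 over the TNFRSF11B count plus 1, and its 0 point has no meaning since the transcripts differ in length. It ranged from -4.20 through a median of 2.03 to 9.62 in COTC021 and from -3.11 through 2.14 to 6.11 in COTC022. The mean was 1.79 ± 2.57 (SD, n = 93) and 2.00 ± 2.00 (SD, n = 93), a difference of 0.21 (SE 0.34) that is smaller than the SD in either trial, and a two-sided permutation test gave p = 0.539. In set A the difference was 0.90 (SE 0.64, p = 0.157) and in set B -0.00107 (SE 0.40, p = 0.998), by permutation tests.

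Dogs with a higher ratio had higher levels of all 7 osteoclast genes. The ratio is built from TNFSF11 and TNFRSF11B, whose correlations with these genes in the same dogs are given above. The p-values of the ratio are therefore not separate support. The closest relation was with OCSTAMP (rho = 0.62, r = 0.66), then DCSTAMP (rho = 0.59, r = 0.66), CTSK (rho = 0.57, r = 0.61), TNFRSF11A (rho = 0.51, r = 0.55) and ACP5 (rho = 0.51, r = 0.60). With NFATC1 rho was 0.37 and r was 0.34. For these 6 genes the permutation p was 1e-05, the smallest possible, with an adjusted p of 1.33e-05 over 8 relations. CALCR had rho = 0.17 (p = 0.0196, adjusted p = 0.0224) and r = 0.15 (p = 0.0362, adjusted p = 0.0414).

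By trial and by set, the Spearman test of the ratio passed for 6 of the 7 genes. With NFATC1 rho was 0.50 in COTC021 and 0.23 in COTC022 (adjusted p = 0.0355), where r was 0.20 and did not pass (p = 0.0568, adjusted p = 0.0757, permutation test). The rho with OCSTAMP was 0.67 in COTC021, 0.57 in COTC022, 0.75 in set A and 0.56 in set B. The rho with CTSK was 0.62, 0.51, 0.61 and 0.55 in the same order. Without the 2 dogs with the most extreme ratio, r was 0.65 for OCSTAMP and 0.61 for CTSK. The rho with CALCR passed in COTC021 (0.24, adjusted p = 0.0215) and not in COTC022 (0.10, adjusted p = 0.396), in set A (0.24, adjusted p = 0.101) or in set B (0.13, adjusted p = 0.141).

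The ratio was not correlated with the GS-1 score (rho = 0.03, p = 0.671, adjusted p = 0.671; r = 0.05, p = 0.538, adjusted p = 0.538). GS-1 is a signature of leukocyte and antigen presentation genes. The score is the mean z-score of the 27 genes of GS-1 that the study kept after count filtering, which is not the whole published signature. By trial and by set, rho with the score was between -0.09 in set A and 0.09 in COTC021.

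**Figure D4:**
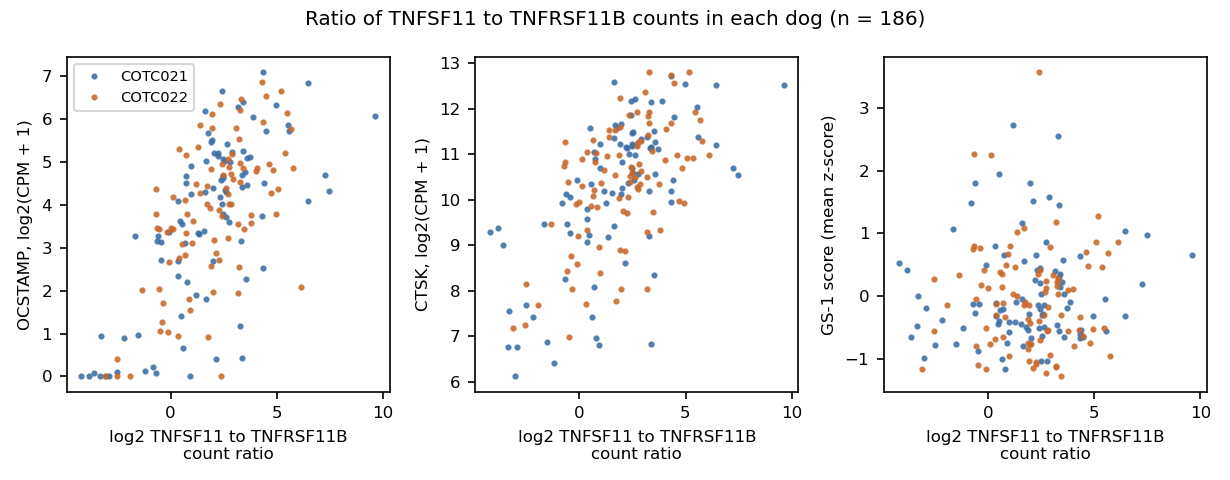
Log2 ratio of the TNFSF11 to the TNFRSF11B count of each dog (x axis) against OCSTAMP and CTSK, both as log2(CPM + 1), and against the GS-1 score (mean z-score), with COTC021 in blue and COTC022 in orange (186 dogs). The points climb from left to right for OCSTAMP (rho = 0.62) and CTSK (rho = 0.57) and show no slope for the GS-1 score (rho = 0.03).

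Against the GS-1 score itself, the members were called about as often as all genes. The score includes CCR1, which had rho = 0.94 with CTSK and with DCSTAMP. Of the 8 tested, limma-voom called 2 higher and 2 lower per SD of the score, against 22.3% and 26.2% of all genes, so that the share called (4 of 8) was near the 48.5% of all genes. CTSK rose by 0.31 (SE 0.11, adjusted p = 0.0125) and DCSTAMP by 0.36 (SE 0.14, adjusted p = 0.0245). TNFSF11 fell by 0.30 (SE 0.10, adjusted p = 0.00689) and TNFRSF11B fell by 0.36 (SE 0.15, adjusted p = 0.0399).

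The other members were not called. ACP5 had a slope of 0.04 (SE 0.18, adjusted p = 0.882), OCSTAMP of -0.14 (SE 0.20, adjusted p = 0.579), TNFRSF11A of 0.16 (SE 0.08, adjusted p = 0.0813) and NFATC1 of 0.09 (SE 0.04, adjusted p = 0.0722). CALCR was tested outside the fit and had rho = 0.13 (p = 0.0701, adjusted p = 0.0701 over 4 relations) and r = 0.05 (p = 0.466) with the score by permutation.

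Most of these calls were lost under another method or another score. With edgeR's quasi-likelihood test CTSK (slope 0.16, adjusted p = 0.212), DCSTAMP (0.17, adjusted p = 0.298) and TNFSF11 (-0.13, adjusted p = 0.254) were not called, while TNFRSF11B was (-0.49, adjusted p = 0.00142). With CCR1 left out of the score, CTSK (0.25, adjusted p = 0.0529), DCSTAMP (0.31, adjusted p = 0.0660) and TNFRSF11B (-0.31, adjusted p = 0.0773) lost the call and TNFSF11 kept it (-0.33, adjusted p = 0.00289). Within COTC021 none of the 8 members was called, and within COTC022 CTSK (0.37, adjusted p = 0.0276) and TNFSF11 (-0.37, adjusted p = 0.00662) were. Within set A only TNFSF11 was called (-0.61, adjusted p = 0.00287), and within set B only CTSK (0.37, adjusted p = 0.0340). The interaction of the TNFSF11 slope with the set had p = 0.0144 and an adjusted p of 0.534.

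Genes of like role were also set against each other. These pairs were chosen after the slopes above were seen on the same score, so the values are a description and no p is given. The log2 difference of DCSTAMP and OCSTAMP within a dog had rho = 0.30 and r = 0.49 with the GS-1 score over 186 dogs. By trial, rho was 0.31 and r 0.48 in COTC021, and rho was 0.30 and r 0.50 in COTC022. By set, rho was 0.34 and r 0.62 in set A, and rho was 0.30 and r 0.42 in set B. Without the 2 dogs farthest from the median score rho was 0.28 and r 0.39, and with CCR1 left out of the score rho was 0.32 and r 0.49.

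The log2 difference of CTSK and ACP5 had rho = 0.23 and r = 0.205 with the score. Its rho was 0.17 in COTC021, 0.29 in COTC022, 0.22 in set A and 0.25 in set B, and its r was 0.16, 0.25, 0.33 and 0.15 in the same order. Without the 2 dogs farthest from the median score rho was 0.21 and r 0.15, and with CCR1 left out of the score rho was 0.25 and r 0.23. The difference of the macrophage markers CD163 and CD68, the fourth relation computed with the score, had rho = 0.46 and r = 0.47. Its rho was 0.38 in COTC021 and 0.53 in COTC022. These markers differ in their rho with CTSK, which was 0.94 for CD68 and 0.13 for CD163.

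The machinery of bone resorption followed the same axis. The list of 12 genes holds the subunits of the osteoclast proton pump and its partners, the chloride channel CLCN7 with OSTM1, carbonic anhydrase CA2, the anion exchanger SLC4A2, the integrin ITGB3, the protease MMP9 and vesicle genes. On TNFSF11, 11 of 12 rose, where 8.81% of all genes rose. The median slope over the list was 0.59, and RAB7A was the gene not called (0.01, SE 0.03, adjusted p = 0.802). On TNFRSF11B, 12 of 12 fell, where 9.4% of all genes fell, with a median of -0.37. These slopes are from the joint fit that was added after the correlations were seen. The list had a median rho of 0.88 with CTSK, so its calls are not independent of each other or of the members. MMP9 had slopes of 1.78 (SE 0.14) and -1.10 (SE 0.13), and ATP6V0D2, a pump subunit specific to few cell types, of 1.24 (SE 0.15) and -0.74 (SE 0.14). On the GS-1 score 5 of 12 rose and none fell, where 22.3% of all genes rose and 26.2% fell. The median slope was 0.03, and SNX10 (0.32, adjusted p = 0.00355) and TCIRG1 (0.22, adjusted p = 0.0177) were among the 5.

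The surface receptors of the lineage differed in their slopes. In the list of 9 genes for osteoclast surface and costimulation, 4 rose with TNFSF11, where 8.81% of all genes rose. With TNFRSF11B 4 fell, where 9.4% of all genes fell. The median slopes were 0.13 and -0.15. SIGLEC15, a lectin of osteoclasts, had slopes of 1.11 (SE 0.13) and -0.53 (SE 0.12), and OSCAR, the osteoclast-associated receptor, of 0.76 (SE 0.12) and -0.30 (SE 0.11). FCER1G and TREM2, which other myeloid cells also use, were not called on either, with slopes on TNFSF11 of -0.20 (adjusted p = 0.0552) and -0.24 (adjusted p = 0.122). TYROBP, the adaptor that TREM2 signals through, was not called on TNFSF11 (0.17, adjusted p = 0.0955), fell with TNFRSF11B by 0.36 (SE 0.07, adjusted p = 0.00014) and had rho = 0.72 with CTSK. On the GS-1 score 4 of the 9 rose and 1 fell, where 22.3% of all genes rose and 26.2% fell. The slopes were 0.84 for FCER1G and 0.90 for TREM2, while SIGLEC15 (-0.03, adjusted p = 0.888) and OSCAR (0.02, adjusted p = 0.916) were not called.

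Below RANK, the signaling genes went both ways with the ligand. Of 19 genes for signal transduction and transcription, 5 rose and 4 fell with TNFSF11, where 18.9% of all genes were called in either direction. With TNFRSF11B 9 fell and none rose, where 18.7% were called, with median slopes of 0.02 and -0.12. JDP2 (0.42, SE 0.05), SPI1 (0.36, SE 0.07) and PRDM1 (0.34, SE 0.07), transcription factors that act in osteoclast formation, were among those that rose with TNFSF11. TRAF6, the adaptor of RANK, was not called on TNFSF11 (0.02, SE 0.03, adjusted p = 0.768) and fell with TNFRSF11B by 0.12 (SE 0.03, adjusted p = 0.00685). IRF8, a repressor of the osteoclast program, fell by 0.36 (SE 0.10, adjusted p = 0.00403) per SD of TNFSF11. On the GS-1 score 13 of the 19 rose and none fell, where 22.3% of all genes rose and 26.2% fell. IRF8 was among those that rose (slope 1.225, SE 0.04).

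Other ligands and receptors that act on osteoclast formation made up a list of which 14 of 18 genes passed the filter and TNF, IL1B, IL6 and CCL3 did not. With TNFSF11, 7 rose and 1 fell, where 8.81% of all genes rose and 10.1% fell. With TNFRSF11B, 2 rose and 5 fell, where 9.33% of all genes rose and 9.4% fell. CSF1, the growth factor of the monocyte lineage, had slopes of 0.33 (SE 0.06) and -0.28 (SE 0.06), and its receptor CSF1R of 0.26 (SE 0.08) and -0.41 (SE 0.08). PTH1R, the parathyroid hormone receptor of osteoblasts, rose with both, by 0.50 (SE 0.11) on TNFSF11 and 0.39 (SE 0.10) on TNFRSF11B. LGR4, which competes with RANK for RANKL and restrains osteoclast formation, rose by 0.27 (SE 0.07) with TNFRSF11B. On the GS-1 score 8 of the 14 rose and 3 fell, where 22.3% of all genes rose and 26.2% fell.

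Macrophage markers differed in how closely they followed CTSK. CD68 and CD14, both also expressed in the osteoclast lineage, had rho of 0.94 and 0.83 with CTSK and of 0.20 and 0.49 with the GS-1 score. The other 7 markers (AIF1, C1QA, CD163, CYBB, MARCO, MRC1 and MSR1) had rho between 0.06 and 0.14 with CTSK and between 0.48 and 0.93 with the score. Over the list of 9, all rose with the GS-1 score, where 22.3% of all genes rose. With TNFSF11 2 rose and 5 fell, where 8.81% of all genes rose and 10.1% fell. With TNFRSF11B 2 fell, where 9.4% of all genes fell. CD68 and CD14 were those that rose with TNFSF11, by 0.85 (SE 0.09) and 0.39 (SE 0.08). The summed level of the 9 markers ranged from 76.1 to 2796 CPM in COTC021 and from 71.0 to 4364 CPM in COTC022, and all 9 passed the count filter. The part of macrophages in the relations of the members was not tested.

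Among the GS-1 genes, CCR1 stood with the osteoclast genes. This chemokine receptor had rho = 0.94 with CTSK, while the other 26 lay between -0.07 and 0.36. It rose by 0.61 (SE 0.09) per SD of TNFSF11, along with none of the others, of which 18 fell, where 10.1% of all genes fell. With TNFRSF11B it fell by 0.64 (SE 0.09), among 8 genes of the signature that fell, where 9.4% of all genes fell. Its slope on the GS-1 score was 0.50 (SE 0.10), where the median of the 27 genes was 1.18. All 27 rose with the score, as its construction requires.

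**Figure D5:**
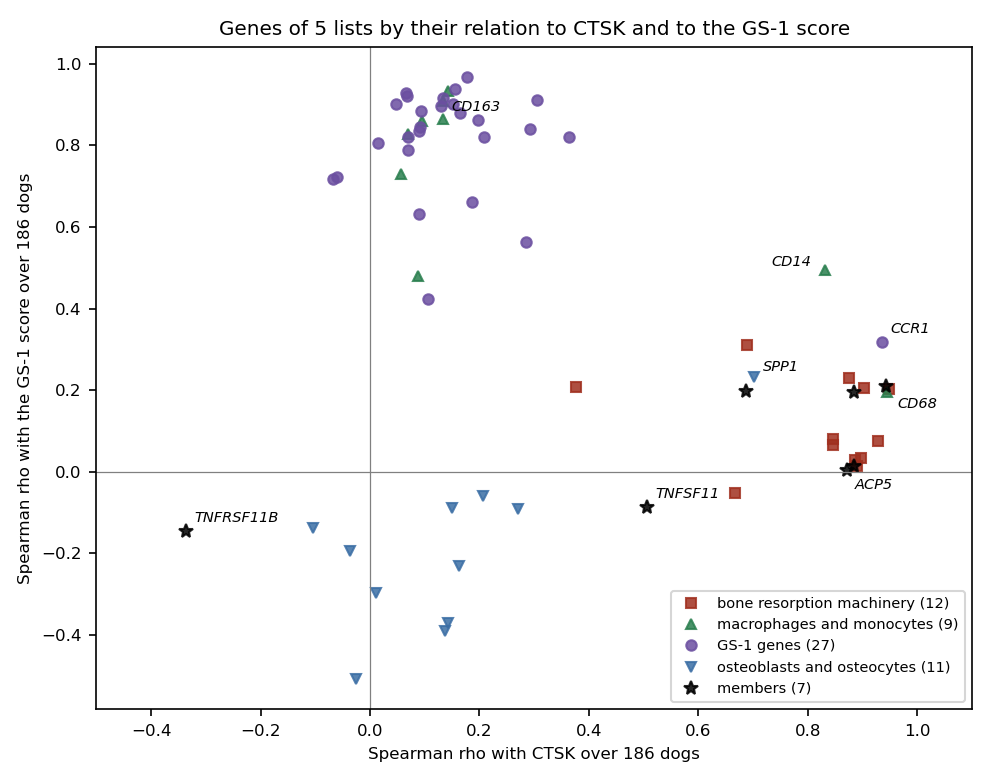
Spearman rho with CTSK (x axis) and with the GS-1 score (y axis) over 186 dogs for genes of 5 lists that passed the count filter, CTSK itself left out. Most genes of bone resorption lie at the right near the members, CD163 and most GS-1 genes at the top left, and CD68, CD14 and CCR1 at the right apart from the rest of their lists.

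Some of the osteoblast genes were related to the ligand as well. Of 11 markers of osteoblasts and osteocytes that passed the filter, 6 rose with TNFSF11 and none fell, where 8.81% of all genes rose. With TNFRSF11B 2 rose and 1 fell, where 9.33% of all genes rose and 9.4% fell. IBSP, bone sialoprotein, rose with both, by 1.18 (SE 0.18) and 0.56 (SE 0.18), and RUNX2, the transcription factor of the lineage, rose with TNFSF11 by 0.28 (SE 0.05). SPP1, osteopontin, which osteoclasts also make, rose by 0.76 (SE 0.10) with TNFSF11 and fell by 0.47 (SE 0.10) with TNFRSF11B. Among those not called on TNFSF11 by limma-voom were COL1A1 (-0.06, adjusted p = 0.753), COL1A2 (-0.04, adjusted p = 0.762) and BGLAP (0.31, adjusted p = 0.252). The summed level of the list had rho = -0.12 with TNFSF11, while the median rho of the 11 markers was 0.18. COL1A1 and COL1A2, with a mean log2(CPM + 1) of 14.1 and 14.4, weigh heavily in this sum. On the GS-1 score 7 fell and 1 rose, where 26.2% of all genes fell and 22.3% rose. The summed level of the list lay between 3087 and 232777 CPM in COTC021 and between 1407 and 229183 CPM in COTC022. How far the proportion of these cells bears on the level of TNFSF11 was not tested.

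The genes most like each member over the 186 dogs, were taken with members and unnamed loci left out. For ACP5 and for OCSTAMP they were MMP9, SIGLEC15 and ATP6V0D2, with rho from 0.92 to 0.94 for ACP5 and from 0.93 to 0.96 for OCSTAMP. For CTSK they were SLC37A2, TCIRG1 and CD68, with rho of 0.95, 0.95 and 0.94. DCSTAMP was most like CCR1 (0.94), CD84 (0.92) and PTPN22 (0.92), and TNFRSF11A most like ATP6V1A (0.93), SLC9B2 (0.92) and PLEKHM1 (0.92).

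The remaining members had less close companions. NFATC1 was most like JDP2 (0.73), CD84 (0.73) and KIAA0040 (0.71), and CALCR, which the filter left out and whose list was taken after its values were seen, most like TYR (0.77), SLC9B2 (0.72) and DDX4 (0.70). TNFSF11 was most like MMP1, the interstitial collagenase (0.67), S100A2 (0.63) and NYAP2 (0.60). For TNFRSF11B the highest among named genes were NKD1 (0.49), BMPER (0.44) and GSC (0.43). The unnamed locus LOC102151382, given here after its value was seen, had rho = 0.66 with it. A Spearman correlation of 0.5 or more was reached by 2.11% of all genes with ACP5, 2.84% with CTSK, 0.663% with CALCR, 0.365% with TNFSF11 and 0.00745% with TNFRSF11B. These values are a description over 186 dogs that share the same normalization.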

How the data were processed

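Libraries were prepared with a stranded mRNA kit and sequenced as paired reads. Per the labels and the methods of the study, the authors trimmed reads with cutadapt, aligned them with STAR 2.7.0f to GSD_1.0 and quantified genes with RSEM 1.3.1. The deposited values are expected counts per gene, not normalized, in which a read that maps to several genes is divided between them, and 3.07% were not whole numbers. Expected counts were rounded here. Of 198 columns, 186 matched a sample by its title and 12 were not used.

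Genes were kept with filterByExpr (minimum count 10, minimum proportion 0.5, large n 5), which left 13422, and TMM factors were applied. Limma-voom, which the study also used, was run with limma 3.58.1 in R 4.3.3. Alternatives used edgeR 4.0.16 and DESeq2 1.42.0. P-values were adjusted by Benjamini-Hochberg over all genes tested. The fit was also run on simulated counts with independent genes and the same dispersion for every gene. The members are correlated with each other, so that run does not bear on how reliable their calls are. The GS-1 score was the mean z-score of log2(quantile-normalized CPM + 2). Correlations used log2(TMM CPM + 1) and two-sided permutation tests with 100000 resamples (Python 3.11.15, numpy 2.4.6, scipy 1.17.1). Figures used matplotlib 3.10.9. Each library is 1 dog, and replicate numbers only name dogs. The members and gene lists were chosen with earlier results of these data known. Genes named are the 9 members, the genes of the lists, and the 3 named genes with the highest rho with each member. The joint fit of TNFSF11 and TNFRSF11B, the score without CCR1 and the differences of 2 genes against the score were added after the data were seen. Loci are from RefSeq, where all 9 members matched by symbol.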

Additional observations from a re-analysis of the deposited data

How the results depend on the processing

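The differences of the members between trials passed the threshold in no setting, and several changed sign. With edgeR's quasi-likelihood test and with DESeq2 they were -0.0598 and -0.0679 for ACP5, -0.00719 and -0.0131 for CTSK, -0.0253 and -0.0323 for OCSTAMP, -0.0117 and -0.0169 for TNFSF11, and -0.413 and -0.416 for TNFRSF11B. In set B (single separator in the library name) they were -0.0748 for TNFRSF11A and -0.0249 for NFATC1, and in set A -0.241 for TNFRSF11B. Over all genes, limma-voom called 2 between trials, edgeR 129, DESeq2 91, limma-voom in set A 0 and in set B 8. The difference in the ratio of ligand to decoy receptor between trials turned to -0.00107 in set B (p = 0.998, permutation test). The cause of these changes was not tested.

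On the GS-1 score the slope of ACP5 turned to -0.0439 with edgeR, -0.0419 with DESeq2, -0.339 in set A and -0.0585 without CCR1, and that of OCSTAMP to 0.0243 in set B. With the score taken from TMM values NFATC1 was called (0.10, adjusted p = 0.0447) and TNFRSF11B was not (-0.31, adjusted p = 0.0685). The number of genes called on the score was 6507, against 3274 in set A and 3512 in COTC021. On TNFSF11 it was 2534, against 1662 in set A, 1365 in set B, 1083 in COTC021 and 1090 in COTC022. On TNFRSF11B it was 2514, against 339, 1068, 923 and 452 in the same order, with fewer dogs in each fit. Among the correlations, CALCR with TNFRSF11B turned to -0.0867 in COTC021 and -0.0627 in set A, and the ratio with the GS-1 score to -0.0231 in COTC022 and -0.0858 in set A. The library set as a covariate, normalization by DESeq2 size factors, omitting the count filter, a pseudocount of 0.25, an added count of 0.5 and library totals in place of TMM changed no call of a member where they were run. The size factors and the omitted filter were run for the differences between trials and the slopes on the GS-1 score, and not for the slopes on TNFSF11 and TNFRSF11B. No library had fewer than 10 counts summed over TNFSF11 and TNFRSF11B. Depth limits mainly CALCR. No paired analysis was possible because the replicate numbers are only names given in accession order.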

Other observations

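Markers of other tissues were related to the ligand and the decoy receptor in their own ways. For all lists below, 8.81% of all genes rose and 10.1% fell with TNFSF11. With TNFRSF11B 9.33% of all genes rose and 9.4% fell, and with the GS-1 score 22.3% rose and 26.2% fell. Of the 5 cartilage markers, 4 rose with TNFRSF11B, by 0.92 (SE 0.19) for ACAN, 0.96 (SE 0.30) for COL2A1, 1.01 (SE 0.24) for COL9A1 and 0.44 (SE 0.12) for SOX9, and none was called on TNFSF11. The same 4 fell with the GS-1 score. Their summed level ranged from 6.12 to 88958 CPM in COTC021 and from 0.266 to 22671 CPM in COTC022. Its part in the relations of TNFRSF11B was not tested.

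The 5 cycling cell markers were called on neither TNFSF11 nor TNFRSF11B, and all 5 fell with the GS-1 score, from -0.19 for MKI67 to -0.27 for TOP2A. Of 5 endothelial markers, VWF fell by 0.46 (SE 0.10) with TNFSF11 and all 5 rose with the score. Of 6 skeletal muscle markers, DES fell by 0.62 (SE 0.18) with TNFSF11 and none was called on the score. FABP4, the single fat marker of 5 that passed the filter, fell by 1.47 (SE 0.18) with TNFSF11 and rose by 1.12 with the score. The T cell markers that passed (3 of 6) rose with the score, 2 of them fell with TNFSF11, and none was called on TNFRSF11B. None of the 5 B cell markers passed the filter. No gene of these lists was called between the trials.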
